A study of Mus musculus with 6 samples.

Results

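The serpins are a family of structurally related proteins, most of which inhibit serine proteases, and the liver secretes many of them into blood. The members described here are the genes of the table whose symbol starts with Serpin. Of 55450 genes, 66 are described as members. They fall into clades A to I, of which clade A (28 genes) and clade B (28 genes) are the largest. The values were measured in the left liver lobe of 6 mice of the strain labelled C57BL/J, aged 10 weeks, with 1 poly(A) RNA library per mouse. The knockout (KO) group is 3 mice with the LKB1 fl/fl genotype, in which both alleles of the kinase gene LKB1 (symbol Stk11) carry loxP sites, and the wild type (WT) group is 3 mice labelled normal. Mice of both groups received AAV8 Cre, an adeno-associated virus that carries the Cre recombinase, at the age of 6 weeks, and the tissue was taken 4 weeks later. The promoter that drives Cre is not given in the sources used here, and cells that took up no virus keep the gene. Separate mice were used, so the spread between libraries includes the spread between animals.

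A serpin inhibits its protease as a suicide substrate. The protease cuts an exposed stretch called the reactive centre loop, the serpin folds that loop into its own core, and the protease stays bound and distorted. The residues of the loop set which protease is trapped. In the liver the clade A members and antithrombin are known as major secreted products of hepatocytes, clade B members act mostly inside cells, and a few members, such as the collagen chaperone Serpinh1 and the hormone carrier Serpina7, inhibit no protease.

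The total expected count per library lay between 47659122 and 56147667. Stk11, the targeted gene, was at 11.4 to 22.1 CPM in KO (CPM values are counts divided by a TMM-scaled library size and brought to a common total) and 64.2 to 69.7 CPM in WT. Replicate 1 of each group carried Xist counts (42472 in KO 1 and 29243 in WT 1), and the other 4 libraries carried counts of Y-linked genes (6146 to 8199). The labels give no sex, so the libraries are named by these counts and the serpins are also compared in the other 4 alone (KO 2 and KO 3 against WT 2 and WT 3). KO 1 and WT 1 form a pair without replicates, and no test was made on that pair by itself. The 5 hepatocyte markers found in the table summed to 20087 to 63887 CPM in KO and 72447 to 113400 CPM in WT, and 3 of them fell in the 4 libraries with Y-linked counts. The 6 endothelial markers summed to 67.2 to 112 CPM in KO and 135 to 185 CPM in WT, with no overlap, and 5 of them fell in those 4 libraries. The 3 red cell markers, at 32.9 to 177 CPM in KO and 109 to 301 CPM in WT, all fell there. For comparison, edgeR called 16.1% of all 14546 genes tested in those 4 libraries as lower and 17.2% as higher. Over the 6 libraries edgeR called 0 of these markers. Among hepatocyte markers 3 had an unadjusted p-value under 0.05, DESeq2 called 4 and limma voom 1, among endothelial markers these numbers were 5, 3 and 0, and among red cell markers they were 0, 0 and 0. The part of these lists in the serpin results was not tested. The 3 pancreatic acinar genes were at 0 in every library.

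The genes reported here are the 28 serpins with a mean of at least 0.5 CPM over the 6 libraries. The lowest of them was Serpina9 at 0.560 CPM, and the highest gene left out was Serpini1 at 0.348 CPM. Of the other 38 genes, 20 had no count in any library and 18 had a few. Clade A held 16 of the 28, clade B held 5, clade F held 2, clade E held 1, and clades C, D, G and H held their single member. Per kilobase of transcript, Serpina3k had the highest mean level at 4226 CPM per kb. The copies of Serpina1 followed, at 3578 CPM per kb for Serpina1c, 2953 for Serpina1b, 2921 for Serpina1a, 2595 for Serpina1d and 2284 for Serpina1e. The next was Serpinc1, antithrombin, at 379 CPM per kb. The family took 2.67 to 3.33% of all counts in the KO libraries. In WT it took 2.76% in WT 1, inside the KO range, and 4.48% and 4.71% in WT 2 and WT 3, above it.

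**Figure D1:**
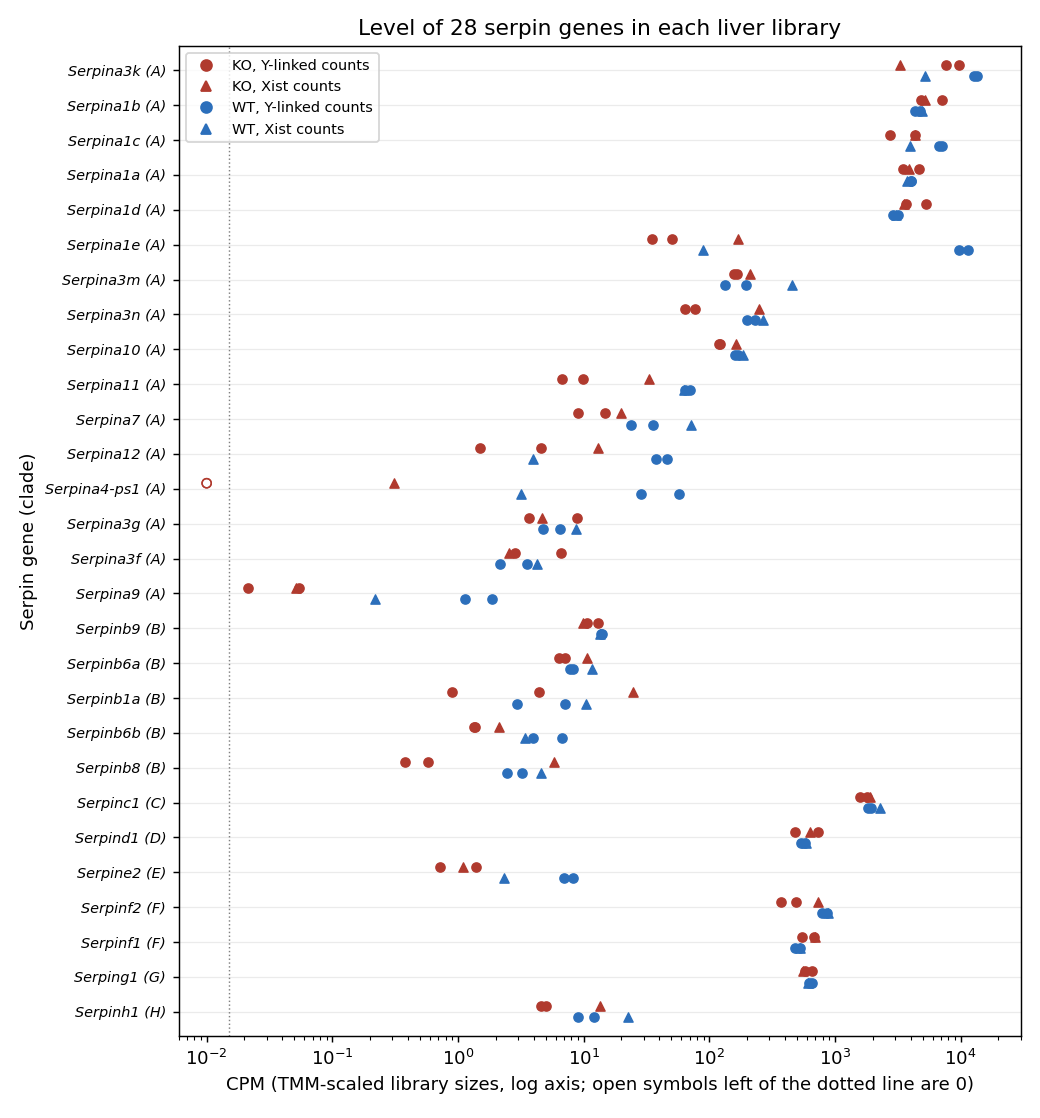
Level of the 28 reported serpin genes in each library, in CPM on a log axis, grouped by clade. Red symbols are KO and blue are WT, triangles are the libraries with Xist counts, circles those with Y-linked counts, and open symbols left of the dotted line are 0. Serpina1e, Serpina12, Serpina4-ps1, Serpina9 and Serpine2 are among the genes in which WT 2 and WT 3 lie above all other libraries.

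Few serpins passed the test over all 6 libraries. Of 14539 genes in edgeR's quasi-likelihood test, 1.22% were lower and 2.15% were higher in KO at an adjusted p-value of 0.05 (Benjamini-Hochberg over all genes tested). Among the 29 serpins in that test (the 28 and Serpini1), 2 fell, Serpina4-ps1 and Serpina9, and 0 rose. No member was higher at an unadjusted p-value of 0.05 either, where 8 were lower, and DESeq2 and limma voom also called 0 members as higher. Both called members passed the filter on low counts mainly through WT, Serpina9 in WT libraries alone and Serpina4-ps1 in 3 WT libraries and 1 KO library, so a difference was built into their entry. Without KO 2, KO 3, WT 2 or WT 3, 0 members were called, while 12 were called without KO 1 and 4 without WT 1. Shares of all genes are not given for these fits or for unadjusted p-values. These counts are therefore not read as particular to serpins. The median log2 fold change (KO over WT) was -0.55 for the 29 serpins and 0.01 for all genes tested.

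More members passed when the pair with Xist counts was set aside. In those 4 libraries 13 of 29 fell and 0 rose, compared with 16.1% of all 14546 genes lower and 17.2% higher. The 13 were Serpina1e, Serpina3n, Serpina4-ps1, Serpina7, Serpina9, Serpina10, Serpina11, Serpina12, Serpinb6b, Serpinb8, Serpine2, Serpinf2 and Serpinh1. Of the 26 members that passed the filter in all 6 libraries, 11 were among the 13, with 15.7% of all such genes lower. A fit over the 6 libraries with a term for Xist or Y-linked counts called 6 members as lower (Serpina4-ps1, Serpina7, Serpina9, Serpina11, Serpine2 and Serpinh1) and 0 as higher, against 4.99% and 5.36% of all genes. In plain levels, all 3 KO libraries lay below all 3 WT libraries for 8 of the 29 members and above them for 2, Serpina1d and Serpinf1. The same held for 15.5% and 16.9% of all genes tested.

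The largest separation among abundant members was in 1 copy of Serpina1. Serpina1 encodes alpha-1 antitrypsin, the main plasma inhibitor of neutrophil elastase, and the mouse genome carries several copies of it side by side. Serpina1e (ENSMUSG00000072849.10) was at 9794 CPM in WT 2 and 11449 CPM in WT 3. It was at 89.2 CPM in WT 1. The KO libraries had 168, 50.3 and 34.8 CPM in KO 1, KO 2 and KO 3. Thus 4 libraries were low, all of KO and WT 1, and the groups overlapped because WT 1 lay within the KO range. Over the 6 libraries the log2 fold change and its standard error (SE) were -6.40 ± 1.68 (adjusted p = 0.0784). Within the libraries with Y-linked counts Serpina1e fell by 7.97 ± 0.40 on the log2 scale, a 250-fold difference in mean CPM (adjusted p = 0.000419, the lowest over 14 alternatives, which ran up to 0.248). Between the WT libraries alone, WT 2 and WT 3 were on average 119-fold above WT 1.

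The other copies did not pass the test in either set of libraries. Serpina1b had 5248, 4802 and 7113 CPM in KO and 4976, 4780 and 4301 CPM in WT. Serpina1a had 3872, 3477 and 4676 CPM in KO against 3718, 4036 and 4058 CPM in WT. For both, the groups overlapped, and the log2 fold changes were 0.29 ± 0.25 (adjusted p = 0.498) and 0.03 ± 0.22 (adjusted p = 0.95). Serpina1d had 3541, 3678 and 5343 CPM in KO and 3053, 3181 and 2911 CPM in WT. All 3 KO libraries lay above WT, and the difference of 0.46 ± 0.25 did not pass the test (adjusted p = 0.284). Serpina1c had 4323, 2768 and 4336 CPM in KO and 3978, 7124 and 6691 CPM in WT. Here WT 2 and WT 3 were again the high libraries and WT 1 lay among KO (-0.64 ± 0.33, adjusted p = 0.261). Serpina1c had a difference within the libraries with Y-linked counts of -0.96 ± 0.31 (adjusted p = 0.0626). There it was 0.39 ± 0.30 for Serpina1b (adjusted p = 0.356), 0.0056 ± 0.26 for Serpina1a (adjusted p = 0.989) and 0.56 ± 0.28 for Serpina1d (adjusted p = 0.175), so none of these 4 copies passed.

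Serpina1e therefore made up very different shares of the copies. It was 33.9% and 38.9% of the Serpina1 counts in WT 2 and WT 3, and 0.564% in WT 1. In KO 1, KO 2 and KO 3 it was 0.980%, 0.340% and 0.162%. The 95% Wilson intervals of these shares, which cover counting error only, reached at most 0.0815 percentage points to either side. The sum over the copies, which does not depend on how reads were divided among them, was 17810 ± 3412 CPM (SD, n = 3) in KO and 24712 ± 7710 CPM in WT. That difference was -0.47 ± 0.36 on the log2 scale (adjusted p = 0.435), and -0.69 ± 0.36 within the libraries with Y-linked counts (adjusted p = 0.197). None of the 14 alternatives called the sum (adjusted p from 0.197 to 0.723).

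**Figure D2:**
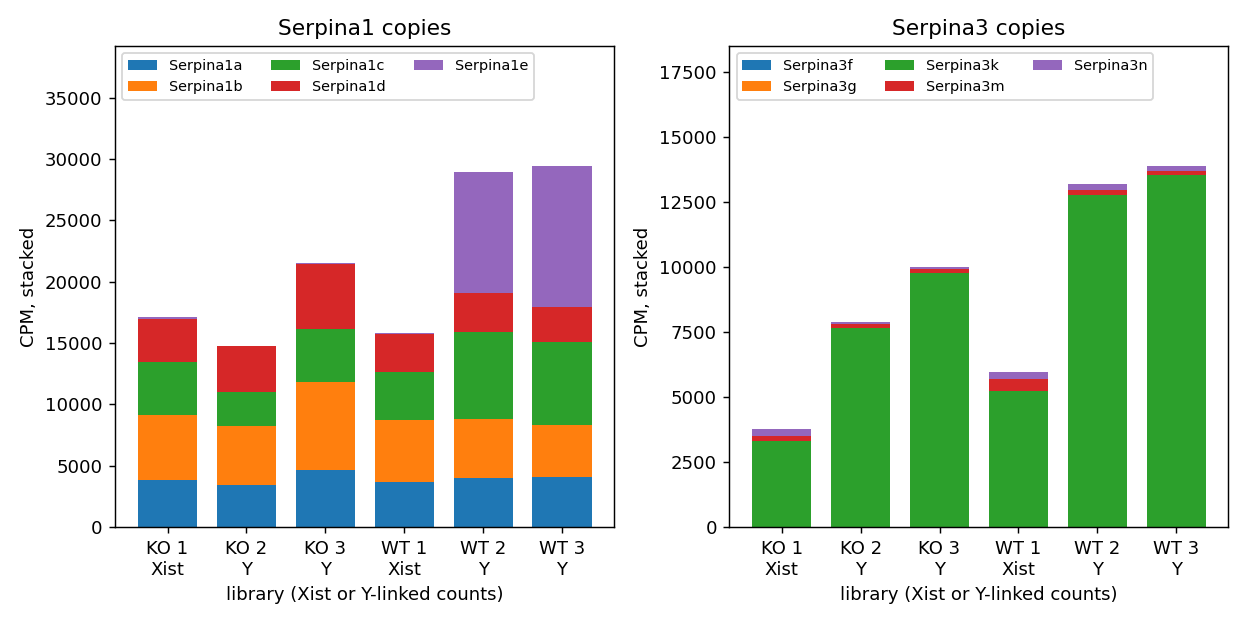
Stacked CPM of the reported Serpina1 copies (left) and Serpina3 copies (right) in each library, with Xist or Y marking the kind of library. Serpina1e is a large segment in WT 2 and WT 3, under 1% of the Serpina1 counts in the other 4 libraries, and Serpina3k makes up most of the Serpina3 counts in every library.

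The copies share much sequence, which limits how their reads can be told apart. The coding sequences of Serpina1a to Serpina1e are each 1242 bases long and 96.3 to 98.5% identical between pairs in the annotated transcripts. Of the 76-base words of each gene's transcripts, the length of 1 read, another gene also held 73.3% for Serpina1c, 49.0% for Serpina1a, 36.6% for Serpina1d, 19.3% for Serpina1e and 18.7% for Serpina1b. The remaining words occur in no other gene, and Serpina1b and Serpina1e had the largest shares of such words among these 5 copies. Some shared words lie in genes outside the sum over the copies. Gm8893 held 22.5% of the words of Serpina1c and 19.6% of those of Serpina1a, and B430119L08Rik held 20.2% of those of Serpina1c. The sum can still depend on how reads were divided with these genes. The differences are densest in 1 stretch. The 76-base window with the most variable positions holds 19 of the 86 that vary among the 5 coding sequences, against a median of 5 per window. It covers coding bases 1098 to 1173, near the end of the protein, where the reactive centre loop of serpins lies. The window is shown because it is the stretch of read length in which these copies differ most, although most of the variable positions lie elsewhere. It is given 5′ to 3′ on the coding (minus) strand, with positions that vary among the copies in capitals:
Serpina1a: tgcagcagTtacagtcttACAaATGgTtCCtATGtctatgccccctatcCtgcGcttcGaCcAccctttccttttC
Serpina1b: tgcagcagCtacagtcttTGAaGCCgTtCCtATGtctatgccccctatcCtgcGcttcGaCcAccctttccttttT
Serpina1c: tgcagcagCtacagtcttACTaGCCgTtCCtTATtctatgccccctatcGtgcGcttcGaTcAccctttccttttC
Serpina1d: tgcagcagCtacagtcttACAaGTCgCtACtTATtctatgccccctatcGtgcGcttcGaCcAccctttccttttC
Serpina1e: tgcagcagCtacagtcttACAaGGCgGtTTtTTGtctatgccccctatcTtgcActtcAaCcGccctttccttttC

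These windows are coding exon sequence on chromosome 12 of build GRCm38, at chr12:103853744-103853819 for Serpina1a, chr12:103728311-103728386 for Serpina1b, chr12:103895081-103895156 for Serpina1c, chr12:103763749-103763824 for Serpina1d and chr12:103947087-103947162 for Serpina1e. Within the window Serpina1e differs from Serpina1a, Serpina1b and Serpina1c at 12 positions each and from Serpina1d at 10, while Serpina1c and Serpina1d differ at 5. Over the whole coding sequence Serpina1e differs from the others at 43 to 46 positions.

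A stretch upstream of the RefSeq start sites was also compared among the copies. A stretch of 120 bases ahead of each RefSeq start site was set side by side without gaps in all 5 copies and varied at 10 positions. It was set to end with the longest word that all copies hold there, so its last 55 bases were identical by choice. It is shown because Serpina1e, unlike the other copies, was at most 168 CPM in WT 1 and KO. The sequences are from RefSeq, build GRCm38.p6, on the minus strand, 5′ to 3′, with the varying positions in capitals:
Serpina1a: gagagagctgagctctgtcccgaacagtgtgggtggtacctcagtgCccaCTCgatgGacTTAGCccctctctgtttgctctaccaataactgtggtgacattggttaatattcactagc
Serpina1b: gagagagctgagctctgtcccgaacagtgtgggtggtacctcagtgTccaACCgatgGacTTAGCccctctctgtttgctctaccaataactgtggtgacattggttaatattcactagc
Serpina1c: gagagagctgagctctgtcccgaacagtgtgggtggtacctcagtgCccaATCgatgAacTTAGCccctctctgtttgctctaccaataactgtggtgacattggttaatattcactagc
Serpina1d: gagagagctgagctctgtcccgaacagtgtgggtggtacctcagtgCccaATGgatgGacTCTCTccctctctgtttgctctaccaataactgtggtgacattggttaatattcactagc
Serpina1e: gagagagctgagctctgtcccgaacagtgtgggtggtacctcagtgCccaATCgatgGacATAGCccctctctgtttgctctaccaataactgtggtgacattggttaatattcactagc

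The stretches overlap 0 annotated exons. They lie at chr12:103863625-103863744 for Serpina1a, chr12:103738200-103738319 for Serpina1b, chr12:103904962-103905081 for Serpina1c, chr12:103773634-103773753 for Serpina1d and chr12:103956960-103957079 for Serpina1e. Counted from the RefSeq start, the stretch runs from -182 to -63 for Serpina1e and from -120 to -1 for Serpina1d, with the others between. For Serpina1b and Serpina1e it lies inside the span of the gene in GENCODE M21, whose annotated start is further upstream. Serpina1e differed from Serpina1a and Serpina1c at 2 positions each, from Serpina1b at 3 and from Serpina1d at 6. The letters TTCNNNGAA, to which STAT proteins can bind, read the same on both strands. They were present in the promoters (250 bases before to 50 after the start) of 8 of the 53 serpins with an entry, or 15.1%. They were also present in 8.30% of all 32851 promoters. The first share counts genes and the second counts promoters, so their units differ. Serpina11, Serpina3f, Serpina3g and Serpinb6a were the reported genes among the 8, and no Serpina1 promoter with a reported gene held these letters.

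Further members that were lower in KO lie next to Serpina1e on the chromosome. Along GRCm38 chromosome 12 the serpins run in the order Serpina1e, Serpina11, Serpina9, Serpina12 and Serpina4-ps1, over 140 kb at chr12:103946931-104086724. All 5 fell within the libraries with Y-linked counts. The ends of the run lie where the calls stop, since Serpina1c was not called and Serpina5 was not tested. That all 5 fell was therefore fixed by the choice of the run and is not comparable with the 16.1% of all genes that fell there. Serpina9 and Serpina4-ps1 passed the filter on low counts mainly through WT, so a difference was built into their entry. On the other side of Serpina1e the copies Serpina1c, Serpina1a, Serpina1d and Serpina1b were not called in those libraries. Serpina10 and Serpina3n, at the ends of the clade A cluster, fell there as well.

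Serpina12 (ENSMUSG00000041567.3) encodes vaspin, a secreted serpin first described in adipose tissue. Its levels were 37.7 and 46.1 CPM in WT 2 and WT 3 and 3.94 CPM in WT 1. In KO 1, KO 2 and KO 3 they were 13.1, 4.56 and 1.51 CPM, so the groups overlapped through WT 1. The log2 fold change was -2.19 ± 1.01 over the 6 libraries (adjusted p = 0.221) and -3.78 ± 0.47 within those with Y-linked counts (adjusted p = 0.00437, the lowest over its alternatives, which ran up to 0.466).

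Serpina4-ps1 (ENSMUSG00000092075.1) is an unprocessed pseudogene of the gene for kallistatin, an inhibitor of tissue kallikrein. It had 28.6 and 57.6 CPM in WT 2 and WT 3, 3.17 CPM in WT 1, 0.309 CPM in KO 1 and 0 counts in KO 2 and KO 3. All KO libraries lay below all WT libraries. The difference was -8.05 ± 1.49 on the log2 scale (adjusted p = 0.0431, with 0.00155 to 0.176 over the alternatives). With KO 2 and KO 3 set to 3 counts each, the level was at least 732-fold lower in KO than in WT within the libraries with Y-linked counts.

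Serpina9 (ENSMUSG00000058260.2), known as a serpin of germinal centre B cells, was near the limit of detection. It had 3, 3 and 1 counts in the KO libraries and 11, 59 and 88 in WT, or 0.217, 1.14 and 1.88 CPM in WT. No KO library reached the lowest WT library. The ratio of WT to KO over the summed counts was 24.3, with a 95% interval of 11.5 to 61.5 for counting error only, and the fitted difference was -4.57 ± 0.91 (adjusted p = 0.0482, with 2.73e-05 to 0.198 over the alternatives). The 3 B cell markers summed to 0.144 to 1.68 CPM in KO and 1.31 to 1.81 CPM in WT, and their part in the result was not tested.

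Serpina11 (ENSMUSG00000063232.16) is named because its result differed between the kinds of library, which was seen in its values. It had 63.5, 69.7 and 64.4 CPM in WT and 33.0, 6.75 and 9.89 CPM in KO 1, KO 2 and KO 3. Unlike Serpina1e and Serpina12, it was as high in WT 1 as in the other WT libraries, and the groups did not overlap. The difference over the 6 libraries was -1.99 ± 0.56 (adjusted p = 0.0910), and within those with Y-linked counts it was -3.02 ± 0.20 (adjusted p = 0.000772, with 0.000751 to 0.263 over all alternatives). The transcript Gm28577 overlaps Serpina11 and Serpina9 on the same strand and shares 34.1% of the words of Serpina11, but it held 0 counts in 5 libraries and 17 in WT 3. The next gene along, Serpina5, which encodes the protein C inhibitor, was under the reporting level, with 0 counts in each KO library and 2, 5 and 7 in WT.

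**Figure D3:**
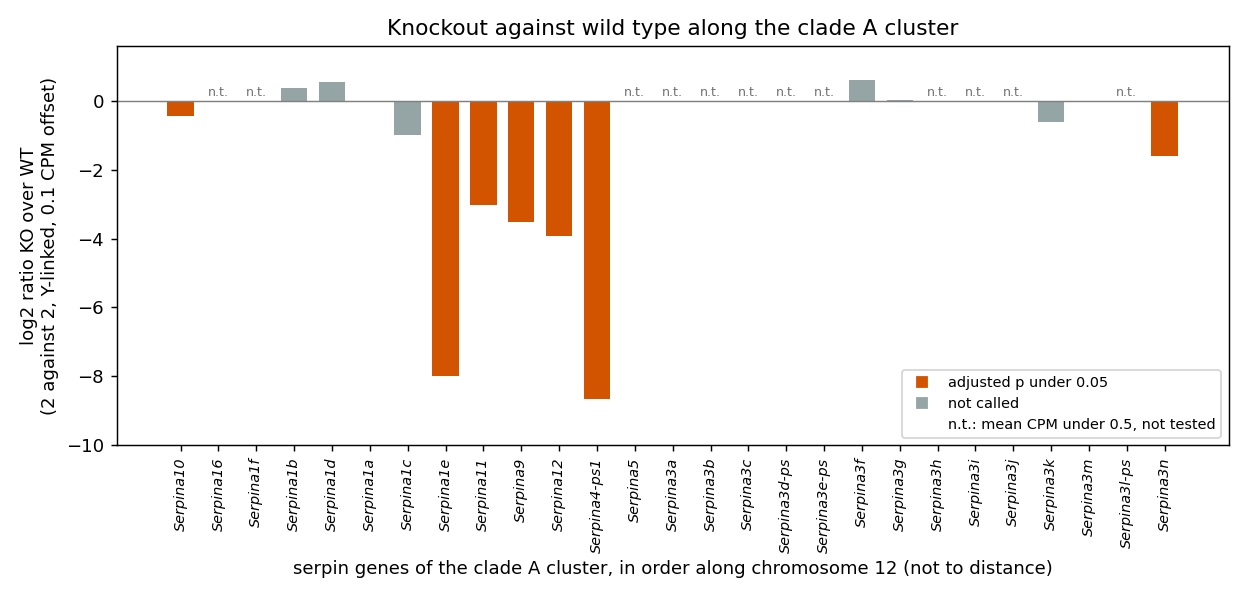
Log2 ratio of KO over WT for the serpins of the clade A cluster on chromosome 12, in gene order, from the 2 KO and 2 WT libraries with Y-linked counts (0.1 CPM added). Orange bars passed an adjusted p-value of 0.05 in those libraries, grey bars did not, and n.t. marks genes below 0.5 CPM. The 5 neighbours from Serpina1e to Serpina4-ps1 form an unbroken run of orange bars, whose ends are set by where the calls stop. Of these, Serpina9 and Serpina4-ps1 passed the filter mainly through WT. Serpina10 and Serpina3n are orange as well.

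The Serpina3 copies are the mouse counterparts of alpha-1 antichymotrypsin, an acute phase inhibitor of chymotrypsin-like proteases such as cathepsin G. Serpina3k had 3301, 7626 and 9741 CPM in KO and 5228, 12743 and 13522 CPM in WT. In each group replicate 1 was the low library, and each KO library was below the WT library of the same kind. The ranges overlapped, and the difference was -0.61 ± 0.52 on the log2 scale (adjusted p = 0.489), with -0.60 ± 0.30 within the libraries with Y-linked counts (adjusted p = 0.176). Its share of the Serpina3 counts separated the kinds of library and not the groups, at 87.7% in both KO 1 and WT 1 and 96.7 to 97.6% in the other 4.

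Serpina3n, an inducible copy in many tissues, had 248, 77.3 and 63.9 CPM in KO and 266, 233 and 199 CPM in WT. KO 2 and KO 3 were the low libraries, and KO 1 lay within the WT range. The difference was -0.84 ± 0.51 over all libraries (adjusted p = 0.332) and -1.62 ± 0.16 within those with Y-linked counts, where it passed (adjusted p = 0.00215, with values up to 0.616 over the alternatives). Serpina3f had 2.54, 6.55 and 2.82 CPM in KO and 4.24, 2.16 and 3.57 CPM in WT, with overlapping groups (0.26 ± 0.43, adjusted p = 0.738, reversed to -0.30 without KO 2). The Serpina3f difference within the libraries with Y-linked counts was 0.71 ± 0.46 (adjusted p = 0.276). Serpina3m and Serpina3g had log2 fold changes of -0.55 and -0.22, with -0.03 and 0.16 within the libraries with Y-linked counts, and were not called in either set. The sum of all Serpina3 copies was 7207 ± 3160 CPM (SD, n = 3) in KO and 11002 ± 4379 CPM in WT, a difference of -0.61 ± 0.48 (adjusted p = 0.448) that none of the 14 alternatives called. These copies are less alike than those of Serpina1. The coding sequences of Serpina3k and Serpina3m were 90.9% identical, those of Serpina3k and Serpina3n 82.6%, and 7.21% of the words of Serpina3k, 9.41% of those of Serpina3m and 1.41% of those of Serpina3n occur in another gene.

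Serpina7 encodes thyroxine-binding globulin, which carries thyroid hormone in plasma, and lies on the X chromosome. It had 19.8, 14.9 and 8.96 CPM in KO and 71.4, 36.0 and 23.8 CPM in WT. Within each group replicate 1 was the high library, and no KO library reached the lowest WT library. The difference was -1.59 ± 0.45 (adjusted p = 0.0926) and -1.33 ± 0.30 within the libraries with Y-linked counts, where it passed (adjusted p = 0.0236, with 0.00295 to 0.262 over the alternatives). The pair with Xist counts gave a log2 ratio of -1.85.

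Serpina10 inhibits factor Xa with protein Z as its cofactor. It had 163, 122 and 120 CPM in KO and 186, 160 and 169 CPM in WT, so that KO 1 overlapped WT and KO 2 and KO 3 lay below. The difference of -0.35 ± 0.17 did not pass over the 6 libraries (adjusted p = 0.243), and within those with Y-linked counts it was -0.45 ± 0.12 (adjusted p = 0.0363, with values up to 0.496 over the alternatives). Its cofactor gene Proz had 289, 52.4 and 136 CPM in KO and 400, 415 and 388 CPM in WT. Proz was not called over the 6 libraries (adjusted p = 0.180) and fell by 2.10 within those with Y-linked counts (adjusted p = 0.0186).

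The abundant inhibitors of clotting did not pass the test in either set of libraries. Serpinc1, antithrombin, which inhibits thrombin and factor Xa with heparin as cofactor, had 1886, 1572 and 1812 CPM in KO and 2273, 1932 and 1825 CPM in WT. The groups overlapped, and the difference was -0.19 ± 0.20 (adjusted p = 0.569). Of the words of Serpinc1, 32.6% also occur in Zbtb37, which overlaps it on the opposite strand. Serpind1, heparin cofactor II, had 629, 485 and 737 CPM in KO and 590, 577 and 541 CPM in WT (0.12 ± 0.20, adjusted p = 0.746). Within the libraries with Y-linked counts the differences were -0.16 ± 0.20 for Serpinc1 (adjusted p = 0.592) and 0.12 ± 0.24 for Serpind1 (adjusted p = 0.723). The lowest and the highest library of Serpind1 were both KO.

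Serping1, the C1 inhibitor of the complement and contact systems, had 561, 663 and 583 CPM in KO and 610, 653 and 621 CPM in WT. The difference was -0.06 ± 0.16 (adjusted p = 0.841), with -0.04 ± 0.17 within the libraries with Y-linked counts (adjusted p = 0.885), and both groups lay within 561 to 663 CPM.

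Among serpins of fibrinolysis, Serpinf2, alpha-2 antiplasmin, the main inhibitor of plasmin, had 734, 374 and 489 CPM in KO and 889, 870 and 783 CPM in WT. All KO libraries lay below WT, the difference was -0.67 ± 0.27 (adjusted p = 0.174), and within the libraries with Y-linked counts it was -0.94 ± 0.20 (adjusted p = 0.0200, with 0.0113 to 0.377 over the alternatives). Serpine2, protease nexin 1, which inhibits thrombin and plasminogen activators at cell surfaces, had 1.10, 0.720 and 1.40 CPM in KO and 2.35, 6.98 and 8.25 CPM in WT. The groups did not overlap, and WT 1 was the lowest of WT. The difference was -2.45 ± 0.51 (adjusted p = 0.0525), and within the libraries with Y-linked counts Serpine2 fell by 2.86 ± 0.34 (adjusted p = 0.00369, with 1.51e-05 to 0.215 over the alternatives). Serpinf1, which encodes pigment epithelium-derived factor and inhibits no protease, had 695, 552 and 686 CPM in KO and 525, 530 and 484 CPM in WT. It was above WT in all KO libraries, with a difference of 0.33 ± 0.17 that did not pass (adjusted p = 0.273), nor did 0.28 ± 0.18 within the libraries with Y-linked counts (adjusted p = 0.282).

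Serpinh1, the collagen chaperone of the endoplasmic reticulum, had 13.6, 4.99 and 4.54 CPM in KO and 22.8, 9.06 and 12.04 CPM in WT. Replicate 1 was high in both groups, and the ranges overlapped because KO 1 lay above WT 2 and WT 3. The difference was -0.92 ± 0.52 over the 6 libraries (adjusted p = 0.30) and -1.15 ± 0.19 within those with Y-linked counts, where it passed (adjusted p = 0.00888, with values up to 0.640 over the alternatives). The 6 markers of stellate cells and fibroblasts, the collagen-making cells of liver, are given beside it. Their sum was 95.7 to 240 CPM in KO and 179 to 405 CPM in WT, with overlapping ranges. Within the libraries with Y-linked counts 4 of the 6 (Col1a1, Col3a1, Lrat and Reln) fell, and Dcn and Des were not called. Among all genes 16.1% fell there. Over all 6 libraries 0 of these markers passed. Their part in the Serpinh1 result was not tested. In bulk tissue, fewer cells of a type and less RNA per cell cannot be told apart.

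Clade B serpins guard cells against their own proteases and were low in these livers. Serpinb1a, an inhibitor of neutrophil elastase and cathepsin G, had 24.9, 0.900 and 4.44 CPM in KO and 10.4, 7.06 and 2.93 CPM in WT. The highest and the lowest libraries were both KO. Its log2 fold change of 0.57 ± 1.04 (adjusted p = 0.757) became -1.37 without KO 1, so the sign rests on that library. In the 4 libraries with Y-linked counts it was -0.92 ± 0.76 (adjusted p = 0.390). Serpinb8, known to inhibit furin, is named after its values were seen. It had 5.76, 0.576 and 0.382 CPM in KO and 4.61, 3.26 and 2.46 CPM in WT, with KO 1 above all WT and the other KO libraries below. The difference was -0.61 ± 0.95 over the 6 libraries (adjusted p = 0.712) and -2.57 ± 0.33 within those with Y-linked counts (adjusted p = 0.00464, with values up to 0.956 over the alternatives).

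The remaining clade B members were Serpinb6a and Serpinb6b, relatives of the human cathepsin G inhibitor SERPINB6, and Serpinb9, related to the granzyme B inhibitor. Serpinb6b was lower in all KO libraries (1.350 to 2.13 CPM) than in WT (3.39 to 6.69 CPM), with a difference of -1.53 ± 0.34 (adjusted p = 0.0605) and -1.97 ± 0.31 within the libraries with Y-linked counts (adjusted p = 0.00836). Serpinb9 was at 9.90 to 12.9 CPM in KO and 13.6 to 14.0 CPM in WT (-0.31 ± 0.14, adjusted p = 0.218), and Serpinb6a did not separate the groups (-0.19 ± 0.25, adjusted p = 0.670). Within the libraries with Y-linked counts the differences of Serpinb9 and Serpinb6a were -0.24 ± 0.13 (adjusted p = 0.214) and -0.25 ± 0.14 (adjusted p = 0.230). Markers of cells that express clade B serpins were given beside them. The 6 markers of Kupffer cells and macrophages summed to 94.1 to 221 CPM in KO and 137 to 187 CPM in WT, and 3 of them (Adgre1, Csf1r and Vsig4) fell within the libraries with Y-linked counts. Of the 5 neutrophil and myeloid markers, Ly6g was at 0 in every library, the sum was 0.573 to 0.875 CPM in KO and 0.299 to 0.424 CPM in WT, and S100a9 rose within the libraries with Y-linked counts. Of the 5 T and NK cell markers, which summed to at most 2.42 CPM, Gzmb rose there. Among all genes 16.1% fell and 17.2% rose in that set of libraries. The part of these cells in the clade B values was not tested.

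The difference between KO and WT was itself compared between the kinds of library, with 1 library per group of the kind with Xist counts. In an edgeR model with group, kind of library and their interaction, 2.90% of 14539 genes passed, and 4 of the 29 serpins did. The coefficient is the log2 difference KO minus WT in the pair with Xist counts, less that in the libraries with Y-linked counts. It was 8.88 ± 0.59 for Serpina1e (adjusted p = 0.00508), 5.51 ± 0.80 for Serpina12 (adjusted p = 0.0316), 2.88 ± 0.48 for Serpinb8 (adjusted p = 0.0452) and 2.07 ± 0.32 for Serpina11 (adjusted p = 0.0390). The 2 libraries with Xist counts have no replicate and are assumed here to vary like the others. The count depended on single libraries, since 15 members passed without KO 3, 10 without KO 2, 2 without WT 2 and 1 without WT 3. The matching shares of all genes are not given, so these numbers do not single out serpins. In the pair with Xist counts the log2 ratios of KO over WT were 0.91 for Serpina1e, 1.71 for Serpina12 and 0.32 for Serpinb8, opposite in sign to the other libraries. For Serpina11 the ratio was -0.94, of the same sign and smaller. Over the 28 genes, 15 (53.6%) were lower in KO in both kinds of library and 9 (32.1%) had opposite signs, compared with 32.4% and 36.5% of the 13029 genes tested with a mean of at least 0.5 CPM.

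**Figure D4:**
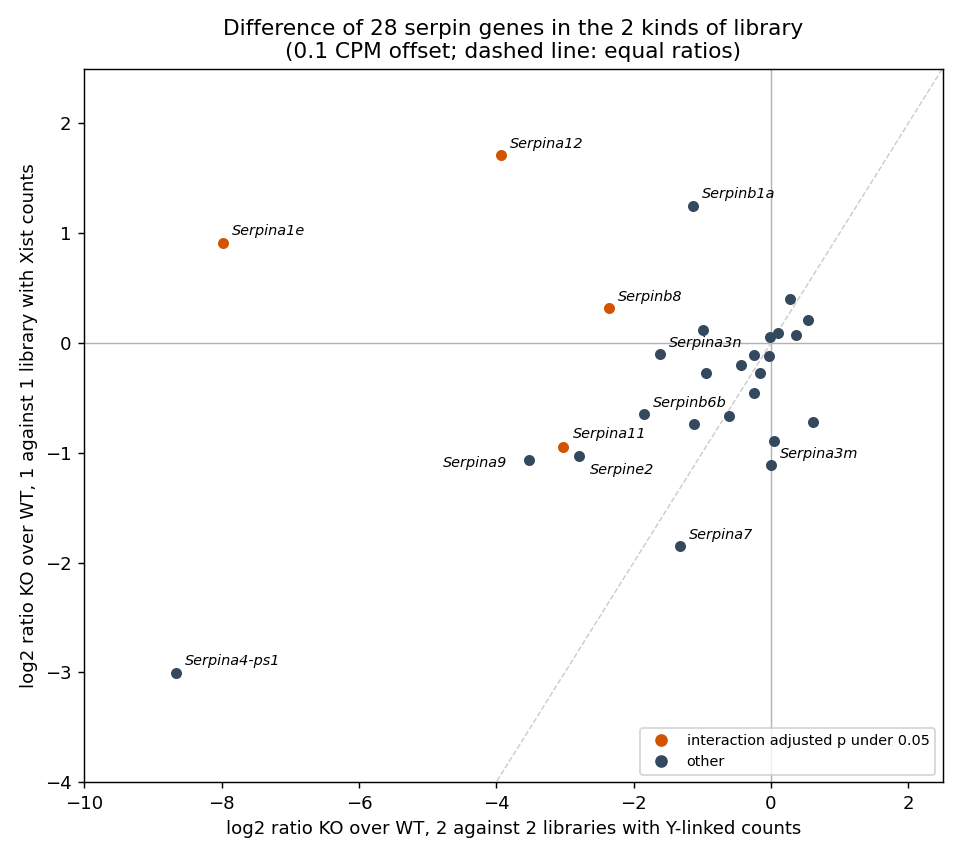
Log2 ratio of KO over WT (0.1 CPM added) for the 28 serpin genes in the 4 libraries with Y-linked counts (horizontal) and in the pair with Xist counts (vertical, 1 library against 1). Orange points passed the interaction test at an adjusted p-value of 0.05. Serpina1e and Serpina12 lie far to the left and above 0, and Serpina7 lies below the line of equal ratios.

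Genes known to be higher in male mouse liver had levels that separated the libraries as Serpina1e did. The 12 genes of that list, among them Elovl3, Hsd3b5 and Cyp4a12a, summed to 23633 and 27849 CPM in the WT libraries with Y-linked counts, 361 CPM in WT 1 and 914 to 1119 CPM in KO. All 12 fell within the libraries with Y-linked counts, where 16.1% of all genes fell and 17.2% rose. Over the 6 libraries edgeR called 0, with 10 at an unadjusted p-value of 0.05, 8 in DESeq2 and 0 in limma voom. Of the genes higher in female liver, 6 were tested and all 6 rose within the libraries with Y-linked counts, with 0 called over the 6 libraries by edgeR, DESeq2 or limma voom and 0 at an unadjusted p-value of 0.05. Growth hormone, whose release differs between the sexes, is known to regulate many of these genes through Stat5b. Of 9 genes of its signalling 7 fell and Cish rose within the libraries with Y-linked counts. The shares of all genes there are the same 16.1% and 17.2%. EdgeR called 0 of the 9 over the 6 libraries, with 6 at an unadjusted p-value of 0.05, 4 in DESeq2 and 0 in limma voom. The part of these lists in the serpin results was not tested.

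Few of the proteases that secreted serpins inhibit passed the test over all libraries. Over the 6 libraries 1.22% of all genes fell and 2.15% rose. Of 19 proteases tested, 1 fell and 0 rose (4 at an unadjusted p-value of 0.05), with a median log2 fold change of -0.22 against 0.01 for all genes. The 1 was F11, coagulation factor XI, a target of Serpinc1 and Serping1, at 33.5, 30.1 and 30.4 CPM in KO and 62.6, 83.8 and 78.5 CPM in WT (-1.26, adjusted p = 0.0154). All 3 KO libraries of F11 lay below all 3 WT libraries. In the 4 libraries with Y-linked counts 6 of 19 fell and 0 rose, compared with 16.1% and 17.2% of all genes. The 6 were F11, the contact protease Klkb1, the anticoagulant Proc, the growth factor activator Hgfac, and C1ra and C1s1, the complement proteases that Serping1 inhibits. C1s1 had 280, 40.04 and 48.6 CPM in KO and 392, 493 and 478 CPM in WT, while Serping1 stayed between 561 and 663 CPM. The genes of prothrombin (F2) and plasminogen (Plg) had differences of -0.22 and -0.59 that did not pass. The neutrophil proteases that Serpina1 and Serpina3 products inhibit were at or near 0, with Ctsg at 0 in every library.

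Of the 12 genes that fold, carry or degrade serpins in the endoplasmic reticulum, 1 fell over the 6 libraries and 0 rose, with a median of -0.27. Among all genes 1.22% fell and 2.15% rose over the 6 libraries. The 1 was Hyou1, a chaperone of the stress response, at 91.3, 110 and 107 CPM in KO and 228, 201 and 248 CPM in WT (-1.13, adjusted p = 0.0220). Within the libraries with Y-linked counts 3 of the 12 fell (Derl3, Hyou1 and Man1b1) and 0 rose, compared with 16.1% and 17.2% of all genes. The receptor Lman1, which carries alpha-1 antitrypsin out of the endoplasmic reticulum, had a difference of -0.44 (adjusted p = 0.107). Of 8 cofactors and clearance receptors of serpins 0 passed in edgeR (1 at an unadjusted p-value of 0.05, 1 in DESeq2 and 0 in limma voom), and within the libraries with Y-linked counts Proz and Lrp1 fell and Vldlr and Plaur rose. Of 21 acute phase genes, the class to which Serpina3n belongs, edgeR called 0, with 11 at an unadjusted p-value of 0.05, 8 in DESeq2 and 0 in limma voom. Within the libraries with Y-linked counts 7 rose, among them Hp and Hpx, and 6 fell, among them the fibrinogen genes Fga, Fgb and Fgg, Saa1 and Orm1. Of all genes 17.2% rose and 16.1% fell there. Serpina3n, which is not counted in these 21 genes, also fell there.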

How the data were processed

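Poly(A) RNA of 6 mouse livers was sequenced with paired reads of 76 bases. The values the authors deposited are expected counts per gene, the estimated numbers of reads that RSEM gives, not normalized. The submitters' processing notes list bcl2fastq 2.17, cutadapt 1.18, STAR 2.7.0f, RSEM 1.3.1 and the build mm9, with no role or order. All 55450 gene identifiers with their versions were found in GENCODE M21, which is on GRCm38 and not on mm9, so names, gene types, lengths and positions were taken from that annotation. The use of strand is not given in the sources used here, so reads of overlapping genes on opposite strands cannot be told apart.

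Groups and replicate numbers came from the sample titles. Expected counts were rounded, and genes were kept by filterByExpr (a minimum of 0.196 CPM in 3 libraries). KO and WT were compared by edgeR 4.0.16 in R 4.3.3 with its quasi-likelihood test on the whole table, TMM scaling, group as the only term and Benjamini-Hochberg adjustment at 0.05. SEs of log2 fold changes were obtained from the fold change and the F statistic (absolute value over the root of F). Same-numbered samples are different mice, and their deviations correlated at 0.178, 0.0443 and 0.0679, so the numbers were not used to pair them. The scripts were checked on simulated counts.

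The alternatives were other scalings, DESeq2 1.42.0, limma 3.58.1 voom, no filter, a replicate block, a term for Xist or Y-linked counts, the 4 libraries with Y-linked counts, and leaving out each library. Ratios of single libraries use 0.1 CPM added to each value. All members with a mean of at least 0.5 CPM are reported. Values in every library are given for those past the threshold, the 8 highest per kilobase, the 5 largest log2 fold changes in each direction, and Serpina3n, Serpina4-ps1, Serpina7, Serpina10, Serpina12, Serpinc1, Serpind1, Serpinf1, Serpinf2, Serping1 and Serpinh1. The members, the gene lists and the split of the libraries were chosen with earlier results of these data known. The table has 68 Serpin symbols, and 2 of them are not reported here. Sequences are from GENCODE M21 transcripts and RefSeq promoters, which held 53 of the 66 members. A count of 3 corresponds to 0.0515 to 0.0641 CPM.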

Additional observations from a re-analysis of the deposited data

Results flagged for a closer look

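The interaction term of the edgeR model passed for 4 serpins, comparing the difference between KO and WT in the pair with Xist counts with that in the libraries with Y-linked counts. The pair holds 1 library per group, with no spread of its own, and is assumed to vary like the others. On the log2 scale that term was 8.88 for Serpina1e, 5.51 for Serpina12, 2.88 for Serpinb8 and 2.07 for Serpina11. Serpina1e, Serpina12 and Serpinb8 were higher in KO 1 than in WT 1 and lower in KO 2 and KO 3 than in WT 2 and WT 3. Serpina11 was lower in KO in both kinds of library. The number of members with such a term was 1 to 15 when single libraries were left out, and the shares of all genes in those fits are not given.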

How the results depend on the processing

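Over 6 libraries 2 serpins were called, and the count was 7 in DESeq2, 0 in limma voom, 5 with no filter, 6 with the term for library kind, 13 without KO 1 and WT 1, 1 among members of at least 5 CPM and 0 to 12 when single libraries were left out. With the replicate block it was 1, Serpina7. Of the listed genes 2 were called, against 27 in DESeq2, 7 with no filter, 1 with the replicate block, 7 with the term for library kind, 52 without KO 1 and WT 1 and 0 to 36 with single libraries left out. Serpins with an interaction numbered 4, against 10 with no filter and 1 to 15 with single libraries left out. Shares of all genes are given for only some of these fits, and the cause of these changes was not tested. The sums of the Serpina1 and Serpina3 copies kept their direction and were called under none of the 14 alternatives. Of 392 values of single members under an alternative, 329 kept direction and call, 37 gained the call, 12 lost it and 14, in 7 of 28 members, changed sign. Leaving out single libraries gave -0.10 to 0.12 for Serpina1a, -0.031 to 0.27 for Serpind1, -0.87 to 0.11 for Serpina3m, -0.45 to 0.0106 for Serpinb6a, -1.37 to 1.12 for Serpinb1a, -0.67 to 0.0253 for Serpina3g and -0.30 to 0.50 for Serpina3f. Serpinb1a was at -0.36 in limma voom, -0.17 with the replicate block, -0.17 with the term for library kind and -0.92 without KO 1 and WT 1. Serpina3g was at 0.16 in the last of these fits. Depth limits Serpina9 and the 18 members under the reporting level, and shared sequence limits the division of reads among the Serpina1 copies.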
